A study of Rattus norvegicus with 12 samples.

Results

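Regions of open chromatin that were listed in saline-treated rats and in no ethanol-treated rat were selected from peak lists made by ATAC-seq, a method that tags DNA not covered by nucleosomes with a transposase and sequences the tagged ends. The peaks of all 12 lists were merged wherever they shared at least 1 bp, and a merged region was called Control-only when at least 3 of the 6 Control lists and 0 of the 6 Ethanol lists held a peak in it. This gave 595 Control-only regions among 118874 merged regions, covering 0.699 Mb of 215.8 Mb. They made up 0.946% of the 62879 regions present in 3 or more lists, and the mirrored rule gave 1367 Ethanol-only regions (2.17%). The samples were amygdala of adult male Sprague Dawley rats, collected 1 h after an intraperitoneal injection of saline (Control, 6 libraries) or of ethanol at 1 g/kg (Ethanol, 6 libraries). The tissue held the central, medial and basolateral nuclei together, so fewer cells with an open site and less opening per cell cannot be told apart. The lists held from 50370 peaks in Ethanol 5 to 75847 in Ethanol 6, with no read counts, so the depth is unknown and no peak in a list does not show that a site was closed. Detection in both groups chose the regions, so detection and the measures tied to it are described here with no test.

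Open regions away from gene starts are commonly enhancers, where transcription factors displace nucleosomes, whereas promoters of widely expressed genes are open in most cells of a tissue. A weak site open in few cells of a mixed tissue gives a low peak that can pass the calling threshold in one library and miss it in the next. Genes are named here from the authors' own annotation of their merged peaks, read for 37 Control-only regions with the same bounds. Those rows come from the top of a list ordered by the authors' comparison of the same samples, so which regions carry a name is not independent of the selection. Of the 37, 25 lay in a gene body, 12 lay in none, and 1 also lay within 2 kb of a transcription start site. The shares over all merged regions were not determined, so these counts do not show where Control-only regions tend to lie. Exons and introns were not distinguished.

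The region at a promoter lay on chromosome 1 from 31493766 to 31495003 (Rnor_6.0), at LOC100911237, which RefSeq now names Zfp502, a zinc finger protein gene. Its RefSeq promoter is shown because it is the sequence of a gene start among the annotated regions. The window runs from 250 bases before to 50 after the start, on the plus strand at chr1:30712735-30713034 of GRCr8. Capitals mark TGACGTCA, the palindromic cAMP response element bound by CREB, a motif chosen after the sequence had been read.
Zfp502: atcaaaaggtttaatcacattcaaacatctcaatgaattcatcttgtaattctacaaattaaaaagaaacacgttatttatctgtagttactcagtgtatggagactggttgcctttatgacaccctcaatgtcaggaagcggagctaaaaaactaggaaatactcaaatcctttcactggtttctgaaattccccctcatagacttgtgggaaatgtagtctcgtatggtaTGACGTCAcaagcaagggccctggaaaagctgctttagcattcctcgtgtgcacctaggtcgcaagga
The motif occurred 1 time, beginning 18 bases before the start, and 612 of 33469 RefSeq promoter windows of this length (1.83%) held it. The match describes the sequence and was not tied to the peak, whose build differs. At this locus peaks covered 748 bp in Control 1, 1119 bp in Control 3 and 884 bp in Control 6, and 0 bp in the other Control libraries. The nearest Ethanol peak was 35848 bp away.

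The Control-only regions thinned out quickly with the number of libraries. There were 462 with a peak in 3 Control libraries, 112 in 4, 18 in 5 and 3 in all 6. The Ethanol-only regions numbered 1034, 260, 62 and 11 at the same steps, more at each step. Of the regions in 4, 5 and 6 libraries in all, Control-only regions made up 1.81%, 0.371% and 0.0739%. Among the 8633 regions in exactly 3 libraries, 5.35% were in 3 Control libraries, 35.8% in 2 Control and 1 Ethanol libraries, and 46.8% in 1 Control and 2 Ethanol libraries, the rest being the 1034 Ethanol-only regions. The mixed regions of 3 libraries thus leaned to the Ethanol lists as well. Of all 1962 regions of 1 group, 30.3% were Control-only (exact 95% binomial interval 28.3% to 32.4%, which covers counting error only and treats regions as independent).

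**Figure D1:**
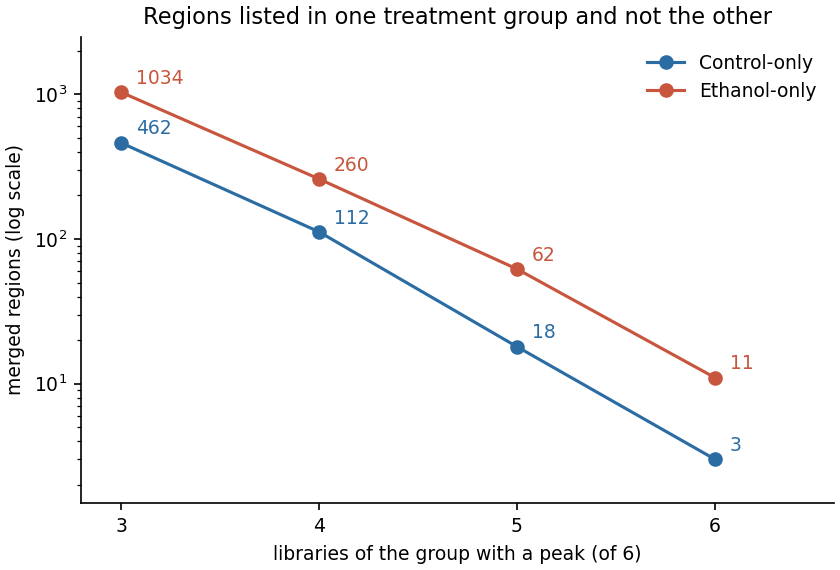
Number of merged regions (log scale) listed in one treatment group and not the other, by how many of the 6 libraries of that group held a peak. Control-only regions fall from 462 at 3 libraries to 3 at 6, and Ethanol-only regions from 1034 to 11.

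The libraries with the longest lists held peaks in the most Control-only regions. Control 6, whose list of 73110 peaks was the longest of its group, held a peak in 464 of the 595 regions (78.0%), and Control 5, with 66785 peaks, in 358 (60.2%). Control 1, Control 4, Control 3 and Control 2, with 52809 to 55461 peaks each, held 309, 286, 267 and 258. A peak in neither Control 5 nor Control 6 was found for 35 regions (5.88%), a share that the rule of at least 3 lists itself limits. Of the 462 regions in exactly 3 libraries, the most frequent set was Control 1, 5 and 6 with 53 regions and the least frequent Control 1, 2 and 3 with 5. Per 1000 peaks in the list, a Control library held on average 5.41 Control-only regions (4.84 to 6.35). An Ethanol library held 11.8 Ethanol-only regions (9.17 to 14.4). By this measure Control 5, a long list, held 5.36 and Control 1, a shorter one, 5.71. Membership of both sets was fixed by the same rule, and libraries of a group share regions. These rates thus restate the sizes of the sets, 595 and 1367, and are a description, not independent values.

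**Figure D2:**
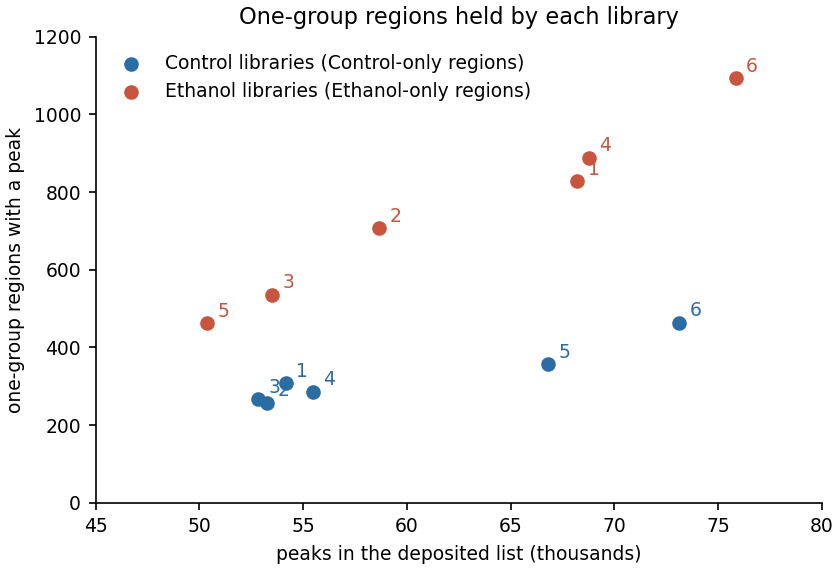
Control-only regions with a peak in each Control library, and Ethanol-only regions in each Ethanol library, against the number of peaks in the list, in units of 1000 (numbers give the replicate). Within each group the longest list holds the most regions, 464 in Control 6 and 1094 in Ethanol 6.

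The 3 regions with a peak in all 6 Control libraries were 1158, 914 and 632 bp wide, against a median of 1025 bp for all Control-only regions. The first lay on chromosome 8 from 70084260 to 70085417, in the body of Megf11, which encodes a transmembrane protein with EGF-like repeats known from the spacing of retinal neurons. Peaks there covered 731, 1074, 824, 774, 878 and 983 bp in Control 1 to 6 (877 ± 130 bp, SD, n = 6), and a region open in all 12 libraries lay 1331 bp away. Within its own list the peak stood from the 10.8th percentile of the score in Control 4 to the 72.2nd in Control 5, so it was near the bottom of one list and in the upper part of another. The next lay on chromosome 12 from 3384146 to 3385059, in no annotated gene body, with 781, 874, 815, 485, 686 and 795 bp (739 ± 139 bp, SD, n = 6). The nearest Ethanol peak was only 174 bp from its edge. The last lay on chromosome 6 from 10247808 to 10248439, with 380, 540, 464, 397, 447 and 386 bp (436 ± 61.4 bp, SD, n = 6). It stood alone, 56272 bp from both the nearest Ethanol peak and the nearest region open in all 12 libraries.

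Of the 18 regions in 5 Control libraries, the 5 with the highest mean score percentile lay on chromosomes 1, 8, 4, 17 and 19. The highest, on chromosome 1 from 244870691 to 244871189 in no annotated gene body, had a mean percentile of 52.5. Peaks covered 399, 497, 391, 371 and 428 bp of it in Control 1 to 5, and it was absent from Control 6, the longest list. The one on chromosome 8 from 7393824 to 7394629 had 611, 415, 467, 762 and 507 bp in Control 1, 2, 4, 5 and 6, and the nearest Ethanol peak was 50733 bp away. The one on chromosome 4 from 51813439 to 51814676 had 992, 1190, 655, 486 and 1001 bp in Control 1, 2, 3, 4 and 6. The remaining pair, chr17:22640131-22641271 and chr19:27242521-27243790, ranged from 402 to 1056 bp and from 370 to 1189 bp where listed.

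Among regions in 3 or 4 Control libraries, the highest mean percentile of all 595 was that of a region at Jakmip2. The gene is expressed in neurons and is named as a member of the Janus kinase and microtubule interacting protein family. This region lay on chromosome 18 from 37997924 to 37998737, with 495, 493, 793 and 773 bp in Control 3 to 6, none in Control 1 and 2, and percentiles from 45.6 to 68.4. The next 4 were chr13:84627105-84629738, chr1:115718138-115719016, chr18:69843274-69844179 and chr4:95422018-95423071. Each was listed in 3 libraries, Control 1 and Control 6 always among them, with mean percentiles from 53.9 to 57.5. The one on chromosome 13 was the longest of these, with 1675 bp in Control 1, 2634 bp in Control 2 and 1228 bp in Control 6.

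**Figure D3:**
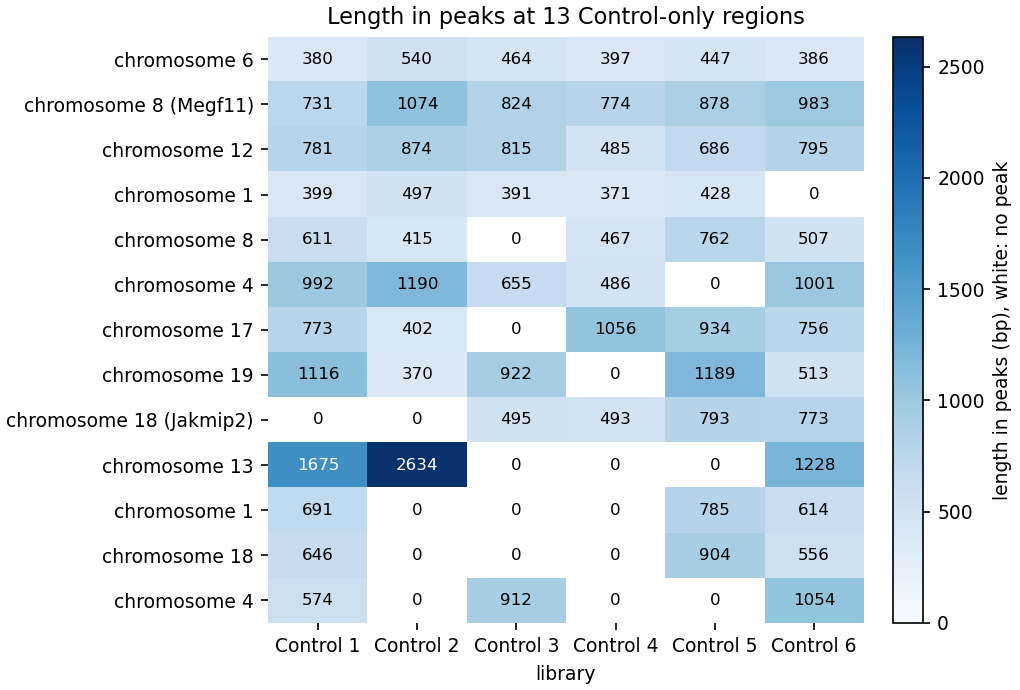
Length in peaks (bp) at 13 Control-only regions in each Control library, the 3 found in 6 libraries at the top, then 5 found in 5 and 5 found in 3 or 4, with the gene body where the authors' annotation gives it. The Ethanol libraries are at 0 in every row by the selection, and the values range from 370 to 2634 bp where a peak is listed.

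The other annotated Control-only regions were named because they carried an annotation, a choice made after their values were seen. Of those in a gene body, most are given gene by gene with what the gene is known for. The remainder are given by name with a shared range of percentiles. The order was not set by the values, and no group of genes was tested or counted. At Robo2, the Slit receptor that guides axons, peaks covered 623, 529 and 343 bp in Control 4, 5 and 6. At Adgrl3, an adhesion receptor of synapses also called latrophilin 3, they covered 795, 705 and 665 bp in Control 1, 5 and 6. At Kctd16, an auxiliary subunit of GABA-B receptors, they covered 535, 416 and 763 bp in Control 1, 4 and 6. At Kcnh8, a voltage-gated potassium channel, they covered 372, 497 and 440 bp in the same libraries as at Kctd16. At these 4 genes the mean percentiles ran from 25.1 to 40.3, and the nearest Ethanol peak lay between 10139 and 53004 bp away. Mctp1, a calcium-binding membrane protein, had 419, 678 and 582 bp in Control 1, 3 and 6, and an Ethanol peak 13736 bp away. Itpkb, a kinase of inositol trisphosphate, had 661, 1250 and 1085 bp in Control 1, 2 and 6, but an Ethanol peak lay only 1349 bp away.

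Add3, a subunit of the membrane skeleton protein adducin, had the widest annotated region at 2901 bp, all of it covered in Control 6 and 811 and 1010 bp of it in Control 2 and 4. Fnbp1l, which links membrane curvature to actin, had 923, 531 and 869 bp in Control 4, 5 and 6. Vps13a, a lipid transfer protein, had 213, 473, 411 and 461 bp in Control 2, 3, 4 and 6, and the nearest Ethanol peak was 63614 bp away. Nfyc, a subunit of the CCAAT-binding factor NF-Y, had 1553, 1058, 1330 and 848 bp in Control 2, 3, 5 and 6, at a mean percentile of 14.3. Phf20, a reader protein of a histone acetyltransferase complex, had 935, 1068 and 773 bp in Control 1, 4 and 6. Srpk2, a kinase of splicing factors, had 1449, 1223 and 1812 bp in Control 1, 3 and 6, but an Ethanol peak lay 339 bp away.

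Cspg4, the NG2 proteoglycan of oligodendrocyte precursors and pericytes, held a region at the lowest scores, with percentiles from 9.45 to 10.8, and an Ethanol peak lay 170 bp from its edge. Ddr2, a collagen receptor of fibroblasts, had 435, 763 and 362 bp in Control 3, 5 and 6. The region shared by Cdh23, a cadherin of hair cells, and Vsir, an immune checkpoint gene inside it, had 1256, 408, 782 and 917 bp in Control 1 to 4 and an Ethanol peak 35 bp away. The remaining annotated gene bodies were those of Ssfa2, Jazf1, Ttc39b, Mast2, Usp40, Rilpl1 and Bmp2k, with mean percentiles from 10.1 to 37.8.

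Control-only regions were narrow. The median width of the merged regions was 1025 bp, with the central 50% between 778.5 and 1434 bp and extremes of 295 and 3992 bp, against 1235 bp for Ethanol-only regions and 3100 bp for regions open in all 12 libraries. At the same prevalence of 3 libraries the medians were 966 bp for Control-only, 1125 bp for regions of both groups and 1188.5 bp for Ethanol-only regions. Within single lists, the median length of a Control-only region was 669 ± 49.1 bp (SD over the 6 Control libraries). For regions of both groups in 3 to 6 libraries it was 732 ± 75.6 bp, and Control-only was the shorter in each of the 6. This contrast was not matched for prevalence: 462 of 595 Control-only and 7137 of 21764 both-group regions were in exactly 3 libraries. The median width of merged both-group regions rose from 1125 bp at 3 libraries to 1541 bp at 6. The 5 widest Control-only regions, 3072 to 3992 bp, lay on chromosomes 14, 15, 7, 18 and 11 and were built from peaks of different libraries, none of which covered more than 2588 bp. The widest, on chromosome 14 from 79975791 to 79979782, had 709, 2588 and 1700 bp in Control 1, 2 and 5, each at the lowest score of its list.

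The peaks were also low in their lists. The score rises in steps, and its lowest value was shared by 16.7% to 21.7% of the peaks of a list. Of 1942 detections of Control-only regions, 44.9% had that lowest value and 10.5% stood above the 50th percentile of their list. For regions of both groups in 3 to 6 libraries the shares were 34.9% and 14.9%, and for Ethanol-only regions 37.5% and 11.4%. At exactly 3 libraries the lowest value held 46.6% of Control-only, 41.3% of both-group and 39.3% of Ethanol-only detections. The median percentile of Control-only peaks lay on the same step as that of both-group regions in every Control library (26.9 ± 1.75, SD, n = 6), and the highest single detection reached the 74.4th percentile, in Control 5. On both sides of the threshold, the 2446 regions with 2 Control and 0 Ethanol libraries had a median width of 857.5 bp and a median of the mean percentile of 19.6. The 462 regions with 3 and 0 had 966 bp and 23.2, and the 1077 with 3 Control and 1 Ethanol library had 1165 bp and 27.2.

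Control-only regions were spread over all autosomes and chromosome X, with 0 on chromosome Y. Chromosome 1 held the most, 65. Per 1000 regions in at least 3 libraries, the rate ran from 5.68 on chromosome 19 to 13.3 on chromosome 8, where 43 regions lay. On each of the 20 autosomes the Ethanol-only regions outnumbered them, whereas chromosome X held 10 Control-only and 5 Ethanol-only regions. Of the 595, 48 (8.07%) had another within 100 kb, against 345 of 1367 Ethanol-only regions (25.2%). The Ethanol-only set is larger, and its neighbours are nearer for that reason as well. The share for 595 regions placed without regard to each other was not determined. Among the Control-only regions there were 21 pairs and 2 runs of 3 at most 100 kb apart. The Ethanol-only regions had a largest run of 16. The tighter of the 2 runs lay on chromosome 7 from 120533450 to 120627979, and its 3 regions had mean percentiles from 19.3 to 26.0. On chromosome 15 between 29 and 33 Mb there were 0 Control-only and 43 Ethanol-only regions, and without that stretch 23.0% of the Ethanol-only regions still had another within 100 kb.

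Peaks around the Control-only regions were as dense in the Ethanol as in the Control lists, within the spread of the libraries. The nearest region open in all 12 libraries lay at a median of 24506 bp, against 21403 bp for Ethanol-only regions and 23225 bp for regions of both groups, and 31.3%, 31.5% and 32.3% of these sets lay within 10 kb of one. An Ethanol peak lay within 500 bp of 88 Control-only regions (14.8%), within 1 kb of 160 (26.9%) and within 10 kb of 414 (69.6%). For Ethanol-only regions and Control peaks the shares were 14.3%, 24.0% and 72.4%. In 15 Control-only regions (2.52%) all 6 Ethanol libraries had a peak within 1 kb on either side, outside the region itself, and in 21 (3.53%) all 6 Control libraries did. In the 10 kb on each side, the region left out, peaks covered 1410 ± 341 bp per region in Control and 1569 ± 380 bp in Ethanol libraries (SD, n = 6 each). Divided by the covered length of the library, the values were 15.9 ± 0.884 and 16.1 ± 0.487 bp per region and covered Mb, with overlapping ranges of 14.6 to 17.0 and 15.4 to 16.7. The Ethanol lists thus held peaks beside the Control-only regions about as densely as the Control lists. Around Ethanol-only regions the same measure was 16.0 ± 0.710 in Control and 17.4 ± 0.778 in Ethanol libraries. The ranges there were 15.4 to 17.0 and 16.3 to 18.6. The selection used the region itself, but an Ethanol peak reaching into a Control-only region from its flank would have removed the region.

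**Figure D4:**
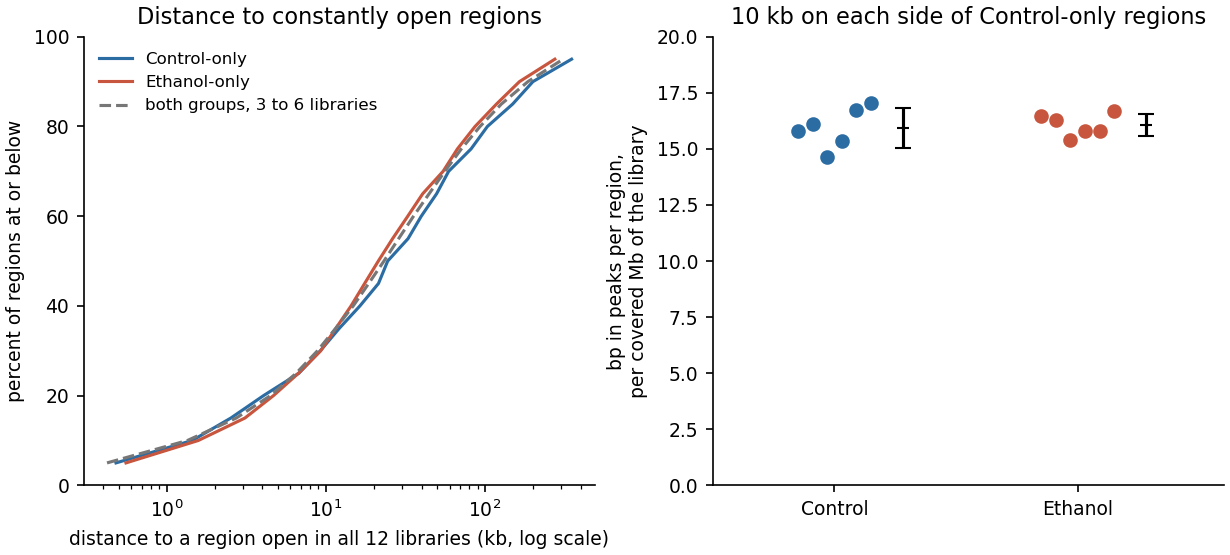
Left, the cumulative share of regions by distance to the nearest region open in all 12 libraries (kb, log scale), for Control-only, Ethanol-only and both-group regions, with medians of 24506, 21403 and 23225 bp. Right, length in peaks within 10 kb on each side of Control-only regions in each library, divided by covered length (points: libraries, bars: mean and SD); Control spans 14.6 to 17.0 and Ethanol 15.4 to 16.7.

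The counts moved with list length and with how tied scores were kept. Each library was reduced to its 50370 highest scoring peaks, the length of the shortest list, and the rule was applied again. Since scores come in steps, this cut falls among tied peaks. Keeping the tied peaks that come first along the chromosomes gave 687 Control-only and 891 Ethanol-only regions, a Control-only share of 43.5% (exact 95% binomial interval 41.1% to 46.0%, counting error only) against 30.3% in the full lists. Keeping tied peaks at random gave 691 and 883 (43.9%). Leaving out all tied peaks, which left lists of unequal length from 42468 to 50370 peaks, gave 501 and 969 (34.1%), so the size of the rise depended on the ties. With 40000, 30000, 20000 and 10000 peaks and ties by position the share was 45.8%, 43.9%, 47.9% and 44.4%.

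The 595 regions themselves were mostly lost at these cuts. At 50370 peaks, 211 of them (35.5%) still had a peak in at least 3 Control libraries with ties by position, 202 with ties at random and 96 (16.1%) with tied peaks left out. With ties by position, 56 were left at 40000 peaks, 4 at 30000 and 0 at 20000. The rest of the 687 lay, by construction, in merged regions that had an Ethanol peak in the full lists. For single regions, ties by position favour low chromosome numbers, so their peaks are given with tied peaks left out. At 50370 peaks the regions at Megf11 and on chromosome 6 then kept peaks in 5 of 6 Control libraries and the one on chromosome 12 in 4. The regions at Jakmip2 and LOC100911237 kept all of theirs, 4 and 3, and at 40000 peaks 4 and 2.

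Which group had more regions of its own depended on the library left out, in part because the rule then treats the groups unequally. Without Ethanol 6, the longest list, there were 1183 Control-only and 592 Ethanol-only regions, and without Control 6 there were 246 and 2315. Control-only regions were also the more numerous without Ethanol 1 (887 against 805) and without Ethanol 4 (882 against 755), both long lists. Leaving out 1 library makes the rule easier for the other group by construction, since 0 of 5 lists is met more often than 0 of 6. Ethanol-only regions stayed the more numerous, 1060 against 526, without both Control 6 and Ethanol 6, which keeps the groups equal in size. At equal list length with ties by position, leaving out any single Ethanol library gave more Control-only than Ethanol-only regions, and leaving out any single Control library the reverse. The depth in reads behind each list is not known, and its part in the difference between the counts was not tested.

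**Figure D5:**
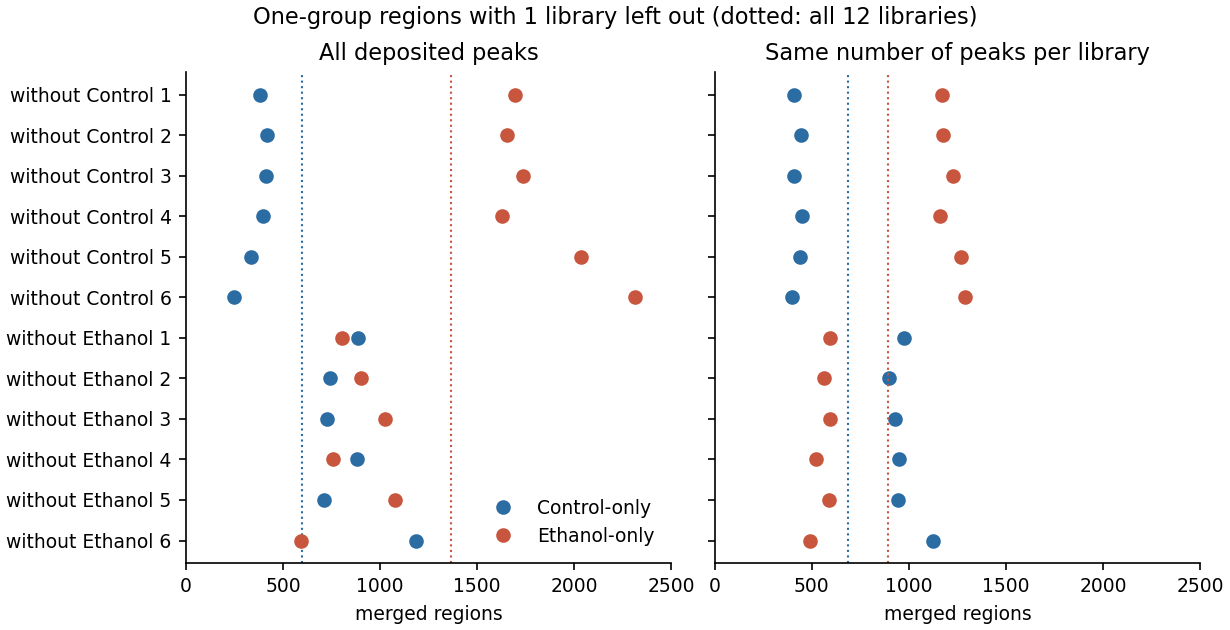
Control-only and Ethanol-only regions when each library is left out in turn, with all deposited peaks (left) and with the same number of top scoring peaks per library, ties by position (right), against the counts from all 12 libraries (dotted). With all peaks, Control-only regions range from 246 without Control 6 to 1183 without Ethanol 6.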

How the data were processed

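The authors deposited 1 list of peaks per library, with chromosome, start, end, name and a score whose meaning is not given in the sources used here. The submitters' processing notes name BWA, MACS2 2.1.1, bedtools 2.27.1, featureCounts 1.5.0, edgeR and the build Rnor_6.0, with no roles. Treatment of duplicate reads and the filter behind each list were not given in the sources used here. Groups and replicate numbers came from the sample titles. Starts are printed counted from 1.

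Lists were merged at 1 bp of overlap with Python 3.11.15, numpy 2.4.6 and pandas 2.3.3, and merging and distances were checked against bedtools and tested on simulated data. The score was turned into a percentile within each library, tied peaks sharing the middle of their range. Regions of both groups had a peak in 3 to 6 libraries, at least 1 in each group. Intervals (scipy 1.17.1) cover counting error only. Gene bodies annotated over more than 5 Mb from their start were left out. The precision is that of 6 libraries per group.

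Named were the regions in 6 of 6 Control libraries, then the 5 in 5 libraries and the 5 in 3 or 4 with the highest mean percentile, the run with the most regions at most 100 kb apart, and the 5 widest. The regions, lists and comparisons were chosen with earlier results of these data known. The count was not compared with other divisions of the libraries into groups.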

Additional observations from a re-analysis of the deposited data

Results flagged for a closer look

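Of 13 groups of 6 values examined, 1 held a value far from the rest of its group, and chance gives about 1 in 20. In Ethanol 6 the median percentile of the Ethanol-only peaks was 23.0, against 26.0 to 27.6 in the other Ethanol libraries. This median is the middle of a step of tied scores, so it does not show that these peaks ranked lower. They had the lowest score of their list in 29.7% of cases, against 36.3% to 45.5% in the other Ethanol libraries. No value of the Control-only regions was set apart in this way.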

How the results depend on the processing

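No paired analysis was possible because the results come from no test. Taking tied peaks at random, leaving out Control 6 and Ethanol 6 together, and leaving out a library at equal list length were alternatives added after seeing the data. Among 80 values of 8 results with other settings and all libraries or without that pair, 46 stayed within 1.5 times the count, the counting interval of a share or 1 SD over libraries. The cause of the shifts was not tested unless the setting itself fixes it.

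With the 50% highest scoring peaks there were 239 Control-only and 649 Ethanol-only regions, a Control-only share of 26.9%, a median width of 1257 bp, a median percentile of 58.8 and a median distance to regions open in all 12 libraries of 42753 bp. With the same number of peaks and ties by position, Ethanol-only regions numbered 891 and the share, width, percentile and distance were 43.5%, 1127 bp, 37.1 and 31716 bp. With ties at random they were 883, 43.9%, 1098 bp, 37.1 and 30688 bp, and 11.1% had a neighbour within 100 kb. With ties left out the share, width, percentile and distance were 34.1%, 1158 bp, 41.3 and 34608 bp. In all these cuts the percentile still refers to the uncut list, so its rise is fixed by the cut. Requiring peaks over 50% of the region gave 26.6%, 1118 bp and 114060 bp, and merging across 500 bp gave a width of 1050.5 bp. At least 2 libraries gave 3041 Control-only and 5346 Ethanol-only regions, 36.3%, 890 bp and 35.3% with a neighbour, and at least 4 gave 133, 333 and 1210 bp. Without Control 6 and Ethanol 6 the share was 33.2%.

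With each library left out in turn, 65 of 96 values were kept with all peaks and 31 of 96 at equal length. Both counts were judged against the full lists with all 12 libraries. The second thus includes the shift made by the cut itself and does not measure the leaving out of a library alone. With all peaks the ranges were 246 to 1183 Control-only regions, 592 to 2315 Ethanol-only regions, 9.61% to 66.6% for the share, 1020.5 to 1063 bp in width, 25.6 to 25.7 in percentile, 21968 to 27923 bp in distance, and from 4.79% without Control 5 to 16.3% without Ethanol 6 with a neighbour. At equal length, with ties by position, they were 396 to 1122, 489 to 1289, 23.5% to 69.6%, 1071.5 to 1158 bp, 29.04 to 37.5, 25607 to 34832.5 bp and 4.55% to 15.5%. The difference of Ethanol from Control in the covered flanks stayed within 1 SD throughout.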
